A study of Mus musculus with 10 samples.

Results

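The guanylate-binding proteins (GBP), the immunity-related GTPases (IRG), their inducer interferon-gamma (IFN-gamma) and its receptor were examined in a mouse model of abdominal aortic aneurysm. The 10 genes taken were the GTPase genes Gbp2, Gbp3, Gbp5, Gbp6, Irgm1, Igtp and Iigp1, the cytokine gene Ifng and the receptor genes Ifngr1 and Ifngr2, of 35527 gene names in the files. They were found by the gene name of each probe, with older names allowed. This gave 11 names and 16 probes, because the symbol Gbp6 led to 2 names. The probe that the files call Gbp6 carries the accession of the gene now named Gbp7 in RefSeq, and the probes that the files call Mpa2l carry that of the present Gbp6. Both are given under the names of the files, so that 8 GTPase names and 11 names in all were described. All 11 passed the filter on dim probes, but Ifng did so through the PPE arrays, being well above background on 1 of 5 sham arrays.

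Male C57BL/6J mice, 10 weeks old and on normal diet, were operated on at the infrarenal aorta, which was infused for 5 min at 100 mmHg. In the PPE group the infusion was type I porcine pancreatic elastase at 1.5 U/mL, which degrades elastin and thereby begins aneurysm growth. In the sham group it was saline. Whole infrarenal aortas were taken at 7 days, with 5 mice and 5 arrays in each group and 1 aorta per array. By the labels the groups differed in the infusate alone. The model is an acute enzyme injury in young males of 1 inbred strain.

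IFN-gamma is secreted mainly by activated T cells and natural killer (NK) cells. It binds a receptor built of the IFNGR1 and IFNGR2 chains, whose Janus kinases start the signal to the nucleus. Responsive genes often carry a DNA element called GAS (gamma-activated sequence), and IRF1, itself induced by IFN-gamma, binds the interferon-stimulated response element (ISRE). The GBP and IRG GTPases are among the most inducible products of this pathway in mice and assemble on vacuoles that hold intracellular bacteria and parasites. In macrophages, GBP proteins also take part in inflammasome activation. Many of these genes respond to type I interferons too.

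Each array measured the ratio of aortic RNA, labelled red, over a universal mouse reference RNA, labelled green. A level is therefore a log2 ratio of aorta over reference, a fold change is the difference of its means between PPE and sham, and levels of different probes were not set against each other. Groups were compared with limma over 22519 tested names, with a Benjamini-Hochberg adjusted p under 0.01 as the threshold. Of these names, 13.9% were called higher in PPE, 9.96% were called lower, and in 25.5% PPE and sham arrays had no overlap. Over all names, fold changes had a median of 0.021 (log2). With arrays centred on their medians instead of loess, the calls went from 3122 higher and 2244 lower to 408 higher and 8 lower, and the median to 0.41. None of the 11 names then passed the threshold, while every one of the 11 stayed above that median. The median residual SD over names was 0.25 with loess and 0.75 with median centring. Red signal was well above background on 37.6% (sham 5) to 65.8% (PPE 1) of spots, and the smooth muscle genes Acta2 and Tagln were well above background on all 10 arrays.

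In PPE aortas, 10 of the 11 names were higher than in sham aortas and none was lower (limma adjusted p under 0.01). At an unadjusted p under 0.05 and by SAM (significance analysis of microarrays, the test of the study), the count lower was 0 as well. The values of the 5 PPE arrays and the 5 sham arrays did not overlap in the same 10 names. For each of these 10 the lack of overlap fixed the exact two-sided permutation p at 0.00794, the smallest that 5 against 5 arrays allow. Gbp5, read with the probe that stood for it, was the exception. Fold changes among the 10 ran from 1.68-fold for Ifngr2 to 7.08-fold for Ifng. Both groups were present on slide 1 (1 sham array and 2 PPE arrays) and on slide 2 (2 arrays of each group). Within both of these slides every one of the 10 was higher in PPE, by at least 0.77 on the log2 scale.

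**Figure D1:**
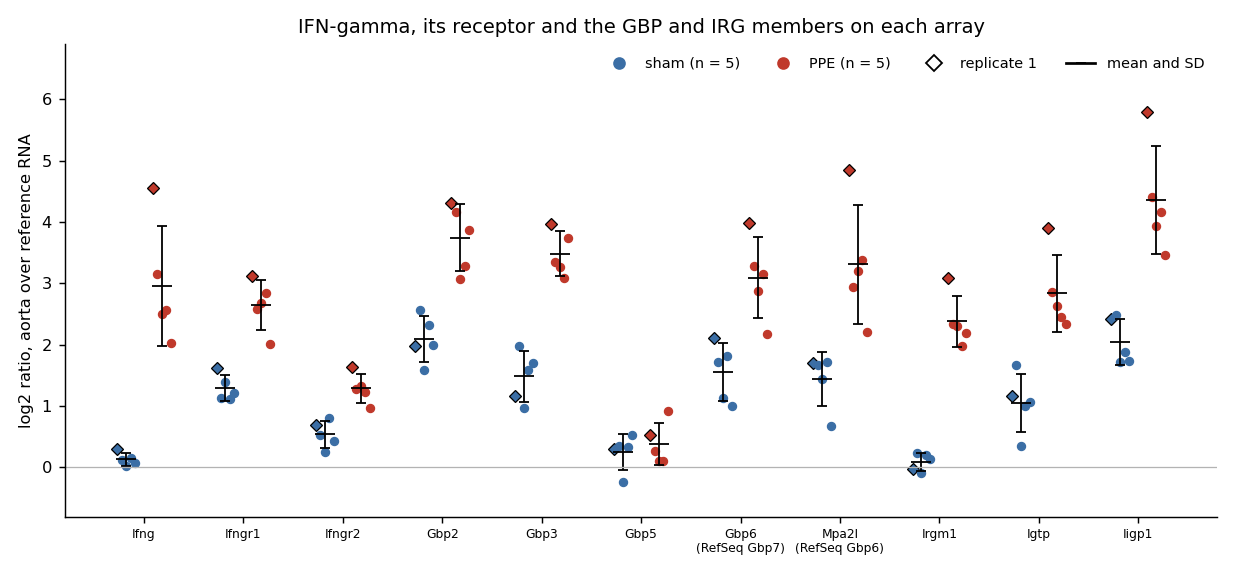
Log2 ratio of aorta over reference RNA (vertical axis) for each name (horizontal axis) on the 5 sham (blue) and 5 PPE (red) arrays, with the mean and SD in black and the array of replicate 1 of each group as a diamond. The groups stand apart in every name but Gbp5, and the PPE 1 diamond is the highest red point in 10 of the 11 names.

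Ifng had the largest fold change of the 11 names with loess. With median centring it was 2.31, below Irgm1, Iigp1, Gbp3 and Igtp. Its log2 ratio was 0.30, 0.13, 0.025, 0.16 and 0.078 on sham 1 to 5, and 4.56, 3.16, 2.50, 2.57 and 2.02 on PPE 1 to 5. The sham values lay close together near 0, and the PPE values were spread widely, with PPE 1 far above the other 4. Its log2 fold change came to 2.82 (SE 0.38, adjusted p 0.000147 by limma), or 7.08-fold with the offset of the background correction. The red signal of the probe (chr10:117882841-117882900, mm9) was well above background on 1 of 5 sham arrays and on all 5 PPE arrays. The probe thus entered the test through the PPE group. The reference RNA was above background there on 3 of 10 arrays, and so the size of the change depended on how low signals were handled. From the log ratio of the scanner files it was 4.55 on the log2 scale. Within slides it was 3.55 on slide 1 and 2.46 on slide 2. Without PPE 1 it was 2.43 (adjusted p 9.96e-06 by limma).

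Markers of T and NK cells, the main makers of IFN-gamma, were partly higher in PPE. Of 10 T cell genes tested, 6 were higher in PPE and Cd3e, Cd4, Cd8a and Cd247 did not pass, and their mean log2 ratio ran from -0.81 to 0.25 on the sham arrays and from 0.85 to 1.88 on the PPE arrays. Cd3d, a chain of the T cell receptor complex, had a log2 fold change of 2.97 (SE 0.44), and Cd8a one of 1.76 that missed the threshold (adjusted p 0.0109 by limma). Of 8 NK cell genes, 6 were higher and Ncr1 and Prf1 did not pass, with a mean log2 ratio of 0.15 to 0.68 on sham and 1.60 to 3.61 on PPE. The NK genes Ncr1 and Klrk1 were not well above background on any sham array and entered the test through the PPE arrays alone. The NK mean was highest on PPE 1, as Ifng was, and lowest among PPE arrays on PPE 5. This order was not particular to NK genes, as the mean of the GTPase names was highest and lowest on the same PPE arrays. The mean of the macrophage genes was highest on PPE 1 too, though lowest among PPE arrays on PPE 3. The T cell mean was highest on PPE 2 (1.88, against 1.76 on PPE 1) and lowest among PPE arrays on PPE 4. In whole tissue, more cells of a type and more RNA per cell cannot be told apart. Whether the NK list reads NK cells apart from T cells was not tested, nor was the part of these cells in the Ifng result.

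Both receptor genes were higher in PPE, by less than their ligand. Ifngr1, the chain that binds the cytokine (chr10:19329923-19329982, mm9), had log2 ratios of 1.61, 1.13, 1.39, 1.11 and 1.21 on sham 1 to 5 and of 3.12, 2.59, 2.67, 2.85 and 2.004 on PPE 1 to 5. PPE 5 was the lowest of its group and still above every sham array. Its log2 fold change was 1.36 (SE 0.19, adjusted p 0.000214 by limma), a 2.56-fold increase. Ifngr2, the signalling chain (chr16:91563982-91564041, mm9), had log2 ratios of 0.69, 0.52, 0.25, 0.81 and 0.43 on sham and of 1.63, 1.28, 1.32, 1.22 and 0.97 on PPE. The groups were separated by 0.16 only, between sham 4 and PPE 5. The log2 fold change of 0.75 (SE 0.15, adjusted p 0.00187 by limma) was the smallest among the called names.

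The GBP genes lie in 2 clusters. On chromosome 3 the files place Gbp5, Gbp6, Gbp3, Gbp1 and Gbp2, and on chromosome 5 Gbp8, Gbp9, Gbp4, Gbp10, Mpa2l and Gbp11. Gbp2 and Gbp3 were read with 1 probe each. Gbp2, a prenylated GBP that takes part in opening bacterial vacuoles (probe at chr3:142300719-142300778, mm9), had log2 ratios of 1.98, 2.57, 1.58, 2.32 and 1.99 on sham 1 to 5 and of 4.31, 4.16, 3.07, 3.29 and 3.87 on PPE 1 to 5. Every PPE array was above every sham array. The change was 1.65 on the log2 scale (SE 0.26, adjusted p 0.000468 by limma), which is 3.14-fold. Within slides it was 2.26 on slide 1 and 1.10 on slide 2. Gbp2 was also the member whose reference channel differed most between groups, by 0.60 on the log2 scale after Aquantile.

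Gbp3 (probe at chr3:142236032-142236091, mm9) showed the widest gap between groups among the GBP names. Its log2 ratio was 1.17, 1.98, 0.98, 1.59 and 1.69 on sham and 3.98, 3.35, 3.26, 3.09 and 3.74 on PPE. The lowest PPE array lay 1.11 above the highest sham array. It changed by 2.001 on the log2 scale (SE 0.22, adjusted p 3.67e-05 by limma), a 4.004-fold increase.

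Gbp6 of the files, the present Gbp7 (probe at chr3:142209379-142209438, mm9), had log2 ratios of 2.11, 1.71, 1.13, 1.81 and 1.01 on sham and of 3.99, 3.27, 2.88, 3.15 and 2.18 on PPE. The groups were close, with PPE 5 only 0.070 above sham 1. It was higher by 1.54 on the log2 scale (SE 0.31, adjusted p 0.00249 by limma). A further probe of this name, with another accession, was well above background on no sham array and on 2 PPE arrays and was not tested.

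Mpa2l, the present Gbp6, is the member on chromosome 5 (probe at chr5:105702128-105702187, mm9). Its log2 ratio was 1.70, 1.66, 1.44, 1.72 and 0.67 on sham and 4.85, 2.93, 3.20, 3.39 and 2.20 on PPE. PPE 1 stood far above the other PPE arrays, and sham 5 below the other sham arrays. The increase was 1.87 on the log2 scale (SE 0.41, adjusted p 0.00378 by limma). Without PPE 4 it was 1.86 and just missed the threshold (adjusted p 0.0101 by limma). Without PPE 1 it was 1.49 (adjusted p 0.00216 by limma). Mpa2l, Gbp10 and their neighbours on chromosome 5 are close copies of each other, and a probe may read more than 1 of them.

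Gbp5 gave different answers with its 2 probes. GBP5 is known for promoting assembly of the NLRP3 inflammasome. The brighter probe, from a cDNA that matched no RefSeq gene by accession (chr3:142181426-142181485, mm9), had log2 ratios of 0.30, 0.35, -0.24, 0.34 and 0.53 on sham and of 0.52, 0.27, 0.11, 0.10 and 0.92 on PPE. The groups overlapped, with a log2 fold change of 0.13 (SE 0.19, adjusted p 0.645 by limma, exact permutation p 0.563). The probe with the RefSeq accession of Gbp5, which starts 3353 bases away (chr3:142184779-142184838, mm9), had log2 ratios of 2.43, 3.34, 0.70, 2.21 and 2.06 on sham and of 5.06, 4.199, 3.38, 3.56 and 4.48 on PPE. Here every PPE array was above every sham array, sham 2 at 3.34 and PPE 3 at 3.38 being nearly level. The difference was 1.99, or 3.97-fold (exact permutation p 0.00794). With this probe standing for Gbp5, a choice made after seeing the values, its limma adjusted p was 0.00466, and with the mean of both probes the log2 fold change was 1.06 (adjusted p 0.0166 by limma).

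The changes read by the probes of Gbp5 differed by 1.86 on the log2 scale (exact permutation p 0.00794). For Irgm1, Iigp1 and Mpa2l the same difference was -0.016, 0.34 and -0.096, with exact permutation p-values of 0.968, 0.0317 and 0.714. These 4 were the members with 2 tested probes. Adjusted over the 4 by Benjamini-Hochberg, the permutation p was 0.0317 for Gbp5 and 0.0635 for Iigp1. In Irgm1, Iigp1 and Mpa2l the groups did not overlap with either probe.

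**Figure D2:**
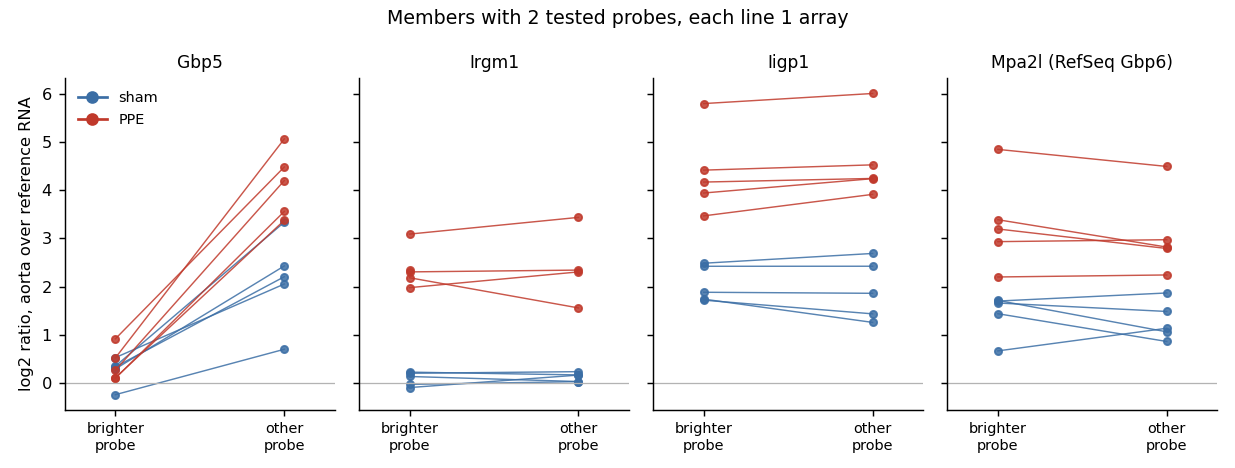
Log2 ratio of aorta over reference RNA (vertical axis) read by the brighter and the other tested probe (horizontal axis) of Gbp5, Irgm1, Iigp1 and Mpa2l, with each line an array, blue for sham and red for PPE (the other Irgm1 probe has no value on PPE 2). Only in Gbp5 do the groups overlap with the brighter probe and separate with the other.

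The stretches before the annotated starts of these genes are shown for the elements named above. RefSeq promoter windows of assembly GRCm38.p6 (250 bases before to 50 after a start) were searched for GAS as TTCNNNGAA, which reads the same on both strands, and for an ISRE-like element, written GAAA, any 2 bases, GAAA, on either strand. Overlapping matches were kept. Of 32851 windows in the genome, 8.3% held GAS, 3.44% held the ISRE-like element and 0.454% held both. Windows were found for 18 of 25 GBP, IRG, Ifng and receptor symbols looked up. They numbered 19, of which 8 held GAS, 12 held the ISRE-like element and 7 held both. Such a match is a description of letters, not a bound site.

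The 170 bases before the start of 4 GBP genes on chromosome 3 are printed 5′ to 3′ on the gene's strand, with matches in capitals, because Gbp2, Gbp3 and Gbp7 carry the ISRE-like element close to the start and Gbp5 carries it further out with a GAS near the start. They lie at chr3:142620493-142620662, plus strand (Gbp2), chr3:142559874-142560043, plus strand (Gbp3), chr3:142530166-142530335, plus strand (Gbp7, the Gbp6 of the files) and chr3:142496764-142496933, plus strand (Gbp5).
Gbp2: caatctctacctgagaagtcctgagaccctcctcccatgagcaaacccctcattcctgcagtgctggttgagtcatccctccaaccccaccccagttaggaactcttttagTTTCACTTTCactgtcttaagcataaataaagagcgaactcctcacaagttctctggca
Gbp3: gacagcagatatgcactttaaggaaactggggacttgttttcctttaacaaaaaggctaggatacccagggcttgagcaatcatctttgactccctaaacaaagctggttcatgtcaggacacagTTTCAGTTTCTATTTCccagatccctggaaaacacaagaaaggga
Gbp7: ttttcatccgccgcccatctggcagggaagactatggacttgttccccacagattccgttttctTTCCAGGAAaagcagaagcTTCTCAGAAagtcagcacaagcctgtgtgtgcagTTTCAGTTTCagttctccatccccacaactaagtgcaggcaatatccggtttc
Gbp5: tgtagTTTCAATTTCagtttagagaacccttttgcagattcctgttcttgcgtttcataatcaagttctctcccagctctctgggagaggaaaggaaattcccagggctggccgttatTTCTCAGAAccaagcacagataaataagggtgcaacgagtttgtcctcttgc
The ISRE-like element, written here on the opposite strand, begins 59 bases before the start in Gbp2 and 53 in Gbp7. In Gbp3 there are 2 overlapping copies, at 45 and 39 bases. Gbp7 holds a pair of GAS matches 19 bases apart, the nearer at 87 bases. In Gbp5 the ISRE-like match is at 165 bases and a GAS at 52. A further window of Gbp3 held neither element. The windows of Ifngr1 and Ifngr2 held neither, and that of Ifng held a GAS 249 bases before the start.

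Of the 3 IRG members, Iigp1 and Irgm1 had the largest fold changes among the 8 GTPase names. Irgm1, a regulatory IRG that protects host membranes from the other IRG proteins (probe at chr11:48679069-48679128, mm9), had the widest gap between the groups of all 11 names. Its log2 ratio was -0.025, 0.23, -0.090, 0.21 and 0.14 on sham and 3.09, 2.34, 2.31, 1.98 and 2.19 on PPE. Sham aortas were near the level of the reference, and the lowest PPE array was 1.75 above the highest sham array. On the log2 scale the increase was 2.29 (SE 0.18, adjusted p 4.17e-06 by limma), a 4.88-fold increase, and a further probe gave 2.28.

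Igtp, another regulatory IRG, known as Irgm3 (probe at chr11:58020927-58020986, mm9), had log2 ratios of 1.16, 1.67, 0.34, 1.002 and 1.06 on sham and of 3.90, 2.86, 2.63, 2.46 and 2.34 on PPE. PPE 1 was well above the other 4 PPE arrays. The log2 fold change was 1.79 (SE 0.31, adjusted p 0.000799 by limma), or 3.45-fold. Iigp1, an effector IRG that coats parasite vacuoles and is known as Irga6, had log2 ratios of 2.42, 2.49, 1.72, 1.88 and 1.74 on sham and of 5.79, 4.41, 3.94, 4.17 and 3.47 on PPE. Its log2 fold change was 2.31 (SE 0.37, adjusted p 0.000488 by limma), a 4.94-fold increase. A further probe of Iigp1 gave 2.65.

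Promoter stretches of 4 IRG genes on chromosome 11 are printed in the same way, because 3 of them share 1 arrangement of both elements. They lie at chr11:58199386-58199555, plus strand (Igtp), chr11:58214807-58214976, plus strand (Irgm2), chr11:48992247-48992416, minus strand (Tgtp1) and chr11:48871421-48871590, minus strand (Irgm1).
Igtp: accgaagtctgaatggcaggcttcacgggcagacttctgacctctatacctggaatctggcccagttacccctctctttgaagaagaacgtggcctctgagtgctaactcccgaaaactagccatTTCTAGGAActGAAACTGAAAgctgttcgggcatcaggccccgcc
Irgm2: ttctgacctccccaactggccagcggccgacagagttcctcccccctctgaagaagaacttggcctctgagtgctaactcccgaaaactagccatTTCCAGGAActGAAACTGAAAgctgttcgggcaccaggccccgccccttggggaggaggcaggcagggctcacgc
Tgtp1: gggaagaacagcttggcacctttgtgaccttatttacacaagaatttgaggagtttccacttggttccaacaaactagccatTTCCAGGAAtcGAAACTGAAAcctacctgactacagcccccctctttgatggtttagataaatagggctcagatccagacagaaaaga
Irgm1: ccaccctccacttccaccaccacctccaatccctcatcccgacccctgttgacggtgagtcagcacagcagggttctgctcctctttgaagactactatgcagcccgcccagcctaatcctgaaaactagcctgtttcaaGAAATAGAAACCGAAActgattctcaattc
In Igtp, Irgm2 and Tgtp1 the GAS is followed after 2 bases by the ISRE-like element, and Tgtp2 has the same order. The GAS begins 45, 75, 88 and 81 bases before the start in Igtp, Irgm2, Tgtp1 and Tgtp2. This joint pattern, a GAS, any 2 bases and an ISRE-like element, was searched on both strands after it was noticed in these genes and occurred in 5 of the 32851 windows. These were the windows of the 4 named genes and of Gm12185, also on chromosome 11. Irgm1 held 2 overlapping ISRE-like matches at 30 and 24 bases and no GAS.

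**Figure D3:**
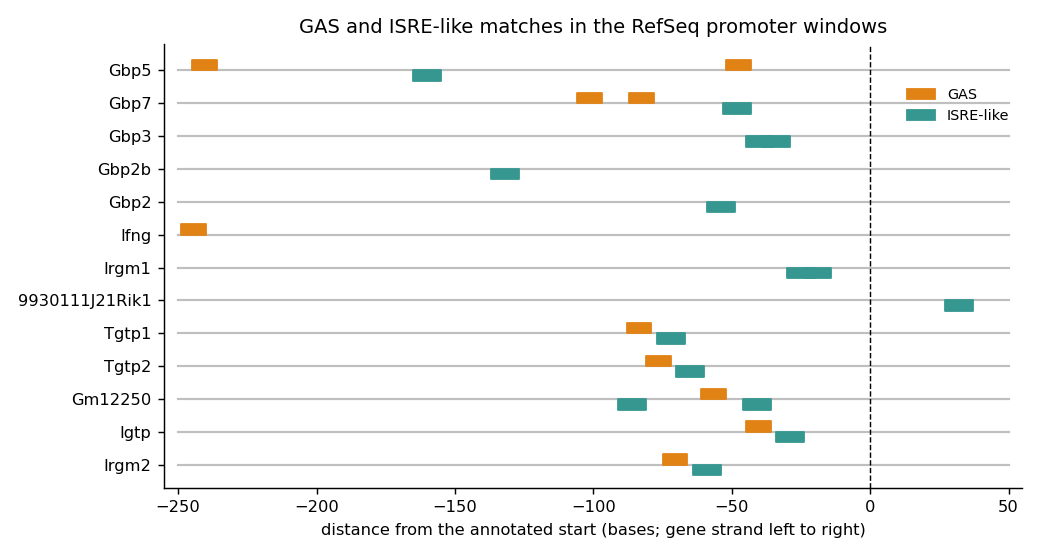
Positions of GAS (orange) and ISRE-like (green) matches along the windows that hold any, drawn 5′ to 3′ from 250 bases before to 50 after the annotated start (dashed line), for 13 RefSeq genes. Of 25 matches, 19 begin no more than 100 bases before the start, and GAS and ISRE-like marks sit side by side in Tgtp1, Tgtp2, Igtp and Irgm2.

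PPE 1 was the highest PPE array in 10 of the 11 names, Gbp5 being highest on PPE 5, and PPE 5 was the lowest PPE array in 7. Among the sham arrays, sham 3 was the lowest in 8. The mean log2 ratio of the 8 GTPase names was 1.35, 1.58, 0.86, 1.36 and 1.10 on sham 1 to 5 and 3.80, 2.95, 2.67, 2.70 and 2.61 on PPE 1 to 5. PPE 2 to 5 lay close together by this measure, with PPE 1 above them. PPE 1 also had the highest mean of the macrophage genes (3.11, against 2.19 to 2.67 on PPE 2 to 5), though Lyz2 had no value on PPE 1. Its share of red spots above background (65.8%) was the largest, followed by PPE 2 (65.3%) and sham 1 (62.1%). These arrays made up slide 1 and were scanned on another day than the rest. The part of these differences in the members' spread was not tested. Without PPE 1, the same 10 names kept an adjusted p under 0.01.

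Of the gene names well above background on all 10 arrays, those whose values followed this GTPase mean most closely over the 10 arrays were Batf2 (Pearson's r 0.992), an interferon-induced transcription factor, a transcript cluster named TC1703733 (0.990), Trafd1 (0.990), Ap3b1 (0.987) and LOC100047388 (0.985), of 15179 names compared. The points share the groups, and a large part of any such likeness is the difference between PPE and sham. Their own fold changes differed, with a log2 fold change of 2.38 for Batf2 and 0.57 for Ap3b1.

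The rest of both families was read from lists of names on the array. Of 22 GBP and IRG names tested, members included, 17 were higher (77.3%), none was lower and 5 did not pass the threshold by limma. Their median log2 fold change was 1.64. Over all tested names 13.9% were higher and 9.96% lower, shares that also stand beside the counts of the lists below. At an unadjusted p under 0.05, 19 were higher and 0 lower, and SAM called 18 higher and 0 lower. Among 6 further GBP names, Gbp8 (2.22, SE 0.42), Gbp11 (2.004, SE 0.32), Gbp9 (1.91, SE 0.27) and Gbp4 (1.44, SE 0.32) were higher. Gbp10 had a log2 fold change of 0.81 (adjusted p 0.0432 by limma). The present Gbp2b, Gbp1 in the files, had one of 1.18 (SE 0.57, adjusted p 0.134 by limma), since its PPE value was 2.77 on PPE 1 and -0.86 to 0.037 on the other 4 PPE arrays. PPE 1 was the highest array in all 6.

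Among 8 further IRG names, 6 were higher. Ifi47, also an IRG, had the largest fold change of the 22 names (Gbp8 was above it in the log ratios of the scanner files), with log2 ratios of 0.53, 0.87, 0.35, 0.75 and 1.13 on sham and of 4.69, 3.81, 3.43, 3.20 and 4.18 on PPE. Its log2 fold change was 3.13 (SE 0.26, adjusted p 5.33e-06 by limma), or 8.78-fold. Next among the further IRG names was Gm12250, known as Irgb10 (2.14, SE 0.27), which helps to break bacterial membranes. Tgtp2 (1.63, SE 0.35) and Tgtp1 (1.58, SE 0.38), near-identical copies whose probes may read both, were higher as well, although the groups overlapped in Tgtp2. Gm4951 (1.48, SE 0.32) and Irgm2 (1.29, SE 0.23) completed the 6. 9930111J21Rik1 had a log2 fold change of 0.74 (adjusted p 0.0697 by limma). Irgq, a distant relative, had one of -0.27 (adjusted p 0.303 by limma), which was 0.23 with median centring, where the median over all names was 0.41. Irgc1 and 9930111J21Rik2 were not tested. 9930111J21Rik2 was well above background on no sham array and on 4 PPE arrays, and its PPE mean was at least 1.37 times the sham level, a bound with no test. In the log ratios of the scanner files, Gbp8 (3.42) and Tgtp1 (2.56) changed more, while Gm4951 (0.87, adjusted p 0.0702 by limma) did not pass the threshold.

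**Figure D4:**
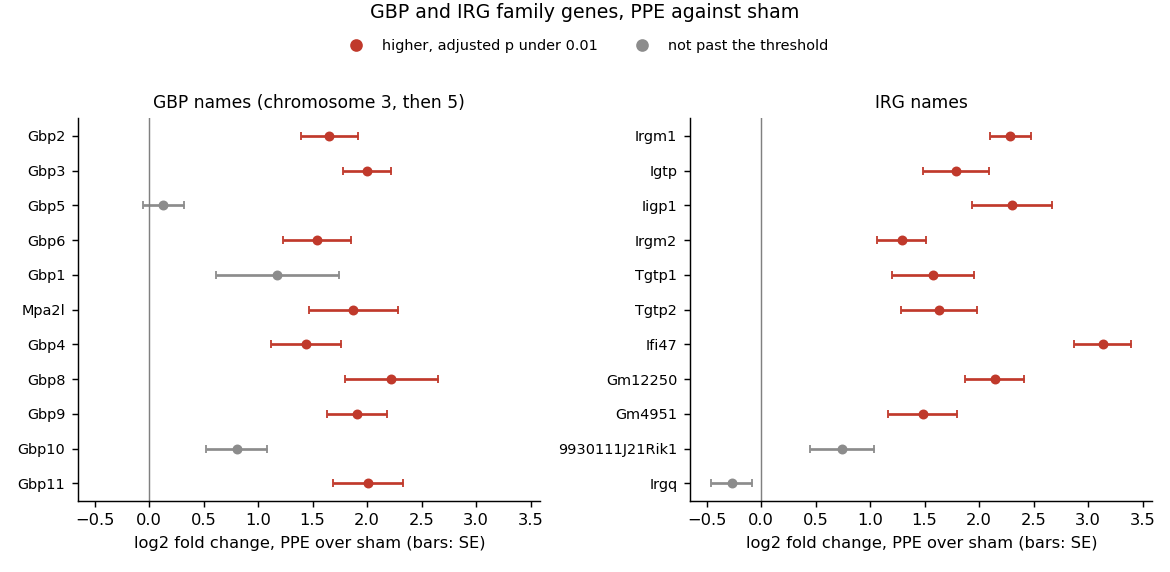
Log2 fold change of PPE over sham (horizontal axis) with its SE for each tested GBP name (left) and IRG name (right), red where the limma adjusted p was under 0.01 and grey where it was not. Of 22 names 17 are red, Ifi47 lies furthest right at 3.13 and Irgq is the only point left of 0.

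Genes that act upstream of Ifng in T and NK cells were mostly higher. Of 10 tested, 8 were higher and the median log2 fold change was 2.10. Il18r1, a chain of the receptor for the IFN-gamma-inducing cytokine IL-18, had a log2 fold change of 3.32 (SE 0.29, adjusted p 7.32e-06 by limma), and its partner Il18rap one of 1.02 (SE 0.25). The transcription factor Tbx21 (T-bet) had a log2 fold change of 2.99 (SE 0.29), Il12rb1 one of 2.60 (SE 0.30), Stat4 one of 2.55 (SE 0.33) and Il18 one of 2.19 (SE 0.25). Il18rap was well above background on 1 sham array, its groups overlapped, and its change was 3.62 in the log ratios of the scanner files. Eomes and Il12b, both among the 8, were not well above background on any sham array and entered the test through the PPE arrays alone. They increased at least 3.19-fold and 1.98-fold, bounds with no test. Il12rb2 (-0.00049) and Il27 (0.15) did not pass the threshold, and Il12a was not tested. Il18 was the only gene of this list well above background on all 10 arrays, and it was called under that filter too.

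In the signalling list, 10 of 12 tested genes were higher, 1 was lower and the median log2 fold change was 1.26. Irf8, an interferon-induced factor of myeloid cells, had the largest (2.43, SE 0.23). The feedback inhibitors Socs1 (2.13, SE 0.25) and Socs3 (2.09, SE 0.20) and the activator Irf1 (2.05, SE 0.17, adjusted p 5.78e-06 by limma) came next. The receptor kinases Jak2 (1.40, SE 0.13) and Jak1 (1.28, SE 0.23) increased by smaller amounts. The phosphatase Ptpn11 was lower, by -0.76 (SE 0.15, adjusted p 0.00204 by limma), although with median centring its value was 0.044 against a median over all names of 0.41. Ptpn2, a phosphatase that dampens Janus kinase signalling, was higher by 0.63 (SE 0.094), and Pias1 (0.14) did not pass.

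Of 20 further IFN-gamma targets tested, 14 were higher, with a median log2 fold change of 1.87. Cxcl10, a chemokine for T cells, had the largest (5.52, SE 0.37, adjusted p 1.41e-06 by limma), a 46.0-fold increase. Its relative Cxcl9 had a log2 fold change of 2.66 (SE 0.40), which was 0.60 and not past the threshold in the log ratios of the scanner files (adjusted p 0.311 by limma). The Fc receptor gene Fcgr1 had one of 3.89 (SE 0.20). Genes of class I antigen presentation rose together, namely the transactivator Nlrc5 (2.68, SE 0.14), the immunoproteasome genes Psmb8 (2.27, SE 0.24), Psmb9 (2.15, SE 0.19) and Psmb10 (1.48, SE 0.12), the transporter Tap1 (1.96, SE 0.20) and B2m (1.59, SE 0.23). Cd274, which encodes the inhibitory ligand PD-L1, had the smallest increase among those called (1.34, SE 0.18).

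Class II genes were divided. The invariant chain Cd74 (2.21, SE 0.36, adjusted p 0.000584 by limma) and the lysosomal reductase Ifi30 (2.77, SE 0.20) were higher. The class II chains H2-Aa (1.19, SE 0.39, adjusted p 0.0335 by limma), H2-Eb1 (0.73, SE 0.22, adjusted p 0.0250 by limma) and H2-Ab1 (0.47, SE 0.29, adjusted p 0.247 by limma) did not pass, and H2-Aa was -0.27 in the log ratios of the scanner files. The class II transactivator gene Ciita was not tested. Cxcl11 (-0.41), Wars (0.26) and Serping1 (0.056) did not pass either, and Ido1 was not tested.

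**Figure D5:**
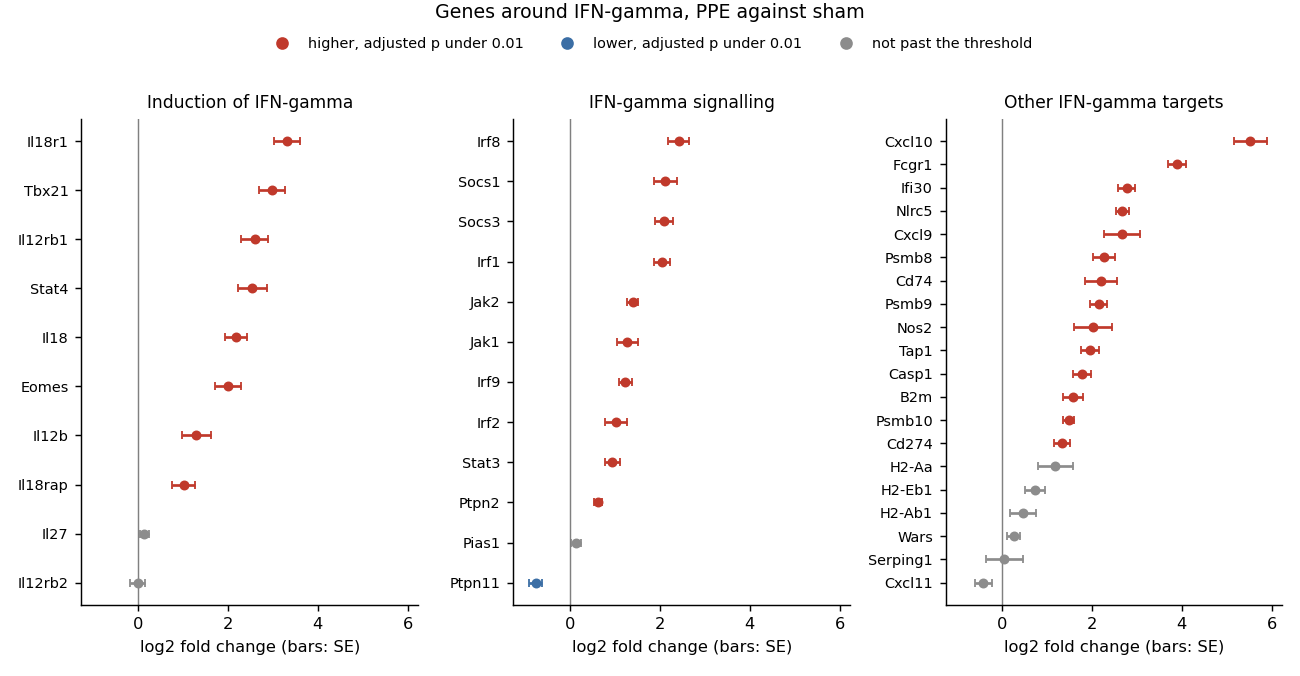
Log2 fold change of PPE over sham (horizontal axis) with its SE for tested genes upstream of Ifng (left), of the signalling chain (middle) and among other targets (right), red for higher, blue for lower and grey for not past a limma adjusted p of 0.01. Cxcl10 lies furthest right at 5.52 and Ptpn11 is the only blue point.

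Genes better known as targets of type I interferon moved the same way. All 16 tested, among them Oas1a (4.205) and Mx1 (3.83), were higher, with a median log2 fold change of 2.92. Signalling by type I and by type II interferon cannot be told apart in this design.

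Markers of other cells also differed between the groups. Of 9 macrophage genes, 8 were higher, with a mean log2 ratio of 0.25 to 0.65 on sham and 2.19 to 3.11 on PPE. Cd163 went the other way (-0.46), not past the threshold but lower at an unadjusted p under 0.05. In the log ratios of the scanner files Cd163 was at -2.16 (adjusted p 0.0227 by limma), and 6 macrophage genes were called higher. Of 8 neutrophil genes tested, 6 were higher, with a mean of 0.35 to 0.51 on sham and 2.45 to 3.70 on PPE. Ngp was not well above background on any sham array and entered the test through the PPE arrays alone. Cxcr2, Mpo and Ltf, also among the 6, were each well above background on 1 sham array and on 5 PPE arrays. They too entered the test through the PPE group. Of the called neutrophil genes, only S100a8 and S100a9 were well above background on every array. The neutrophil mean on sham arrays thus rested in part on dim signals. Of 7 smooth muscle genes, 5 were lower, with a mean of 3.38 to 4.51 on sham and 1.76 to 3.06 on PPE. None of 7 endothelial genes passed the threshold by limma, with 1 higher and 1 lower at an unadjusted p under 0.05 and 1 higher by SAM. With slide, scan day or replicate number as a block, and without sham 1, 1 endothelial gene was called higher by limma. None of 5 B cell genes passed by limma, at an unadjusted p under 0.05 or by SAM. Of 6 fat genes, Ucp1 (-2.94) and Cidea (-2.40) were lower, but in the log ratios of the scanner files they were at -1.19 (adjusted p 0.0295 by limma) and -1.06 (adjusted p 0.0225 by limma) and none of the 6 passed. The part of any of these cell types in the changes of the GTPase genes was not tested.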

How the data were processed

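Aortic RNA (500 ng, Cy5, red) from 1 mouse was hybridized with universal mouse reference RNA (Cy3, green) on each of 10 Agilent arrays, 5 sham and 5 PPE. Dyes were not swapped. Per the study's methods, arrays of poor hybridization and outliers were left out by the authors, without naming them. The authors extracted spots with Feature Extraction. The deposited spot signals are an intensity on a linear scale, and the deposited LogRatio is the log10 of the red to green ratio. The authors' value table holds log2 ratios that equalled processed red over green on 100% of spots (tolerance 1e-04 on the log2 scale). Its column medians ran from -0.16 to 0.12. Direction follows the dyes.

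Mean signals were corrected by normexp (offset 50) and normalized by loess within arrays (R 4.3.3, limma 3.58.1). The offset draws dim probes' ratios towards 0. Control and outlier spots were left out. Probes entered the test where red was well above background on 5 or more of the 10 arrays, and a gene name was represented by its tested probe of highest mean brightness. Groups were fitted unpaired (lmFit, eBayes), with Benjamini-Hochberg adjustment over 22519 names. Adjusted p-values are limma's. Single values were compared by exact two-sided permutation tests over 252 relabellings. Lower bounds of folds used channel values after loess and Aquantile, against the higher of the probe's own signal and the lowest signal well above background per array. Replicates are separate mice, and labels give shared replicate numbers (see the closing section for the replicate block). Probe positions are those of the files (mm9), whose exons and UTRs were not annotated here. Promoters are from RefSeq (GRCm38.p6), and symbols were updated by accession. The number of arrays limits precision.

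The genes and lists were chosen with earlier results of these data known. Named were all members, all tested family genes, the largest, smallest and not called genes of the pathway lists, and the 5 names most like the GTPase mean. Other pathway, type I interferon and cell marker genes named with values were chosen after their values were seen. Alternatives covered scaling, filters, probe choice, slide, scan day, replicate block, single arrays and SAM. The signalling list was used without 1 gene, which is not reported here. The fit was tested on simulated data.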

Additional observations from a re-analysis of the deposited data

Results flagged for a closer look

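Mpa2l had a log2 ratio of 0.67 on sham 5, and its distance to the next sham array (at 1.44) was large against the range of the 5 sham arrays by Dixon's test. It was the 1 group so marked among 22 groups of 5 arrays, and chance marks about 1 in 20 such groups. On sham 5 the fewest red spots were well above background (37.6%), and the part of that in this value was not tested.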

How the results depend on the processing

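The 10 called names kept their direction and their adjusted p under 0.01 with the log ratios of the scanner files, the authors' value table, Aquantile, no filter, the mean of all probes, slide or scan day as a block, without sham 5 and PPE 5 together and by SAM, and Mpa2l was lost without PPE 4 alone (1.86, adjusted p 0.0101). With median centring, 0 GTPase names and 0 of Ifng and its receptor genes were called, against 7 and 3, with log2 fold changes of the 10 from 1.37 to 2.83 and adjusted p from 0.0196 (Gbp3) to 0.243 (Ifngr2). Other counts there were 1 of the other GBP and IRG genes, 1 higher and 0 lower in signalling, 3 targets and 2 inducers, and 408 higher and 8 lower over all names. Of the cell markers, 3 macrophage, 3 neutrophil, 1 NK, 0 T cell, 0 smooth muscle and 0 fat genes were called there. Of the 16 type I interferon genes, 12 stayed called. The cause was not tested. With probes above background on all 10 arrays, 1 inducer was called, since the others were not tested there, nor was Ifng, and 2 neutrophil and 2 NK genes were called. With slide as a random block or scan day as a block, 4 fat genes were lower, and by SAM 10 T cell genes were higher. SAM called 4890 names higher. Leaving out each array in turn, the log2 fold change of Gbp5 ran from -0.0040 (without PPE 5) to 0.20, and it was called only with its RefSeq probe (1.99). The labels do not say whether the replicate numbers shared by the groups pair the arrays. Correlations of deviations within a number were 0.29, -0.30, 0.16, -0.14 and 0.52. Of 5 sham arrays, 1 was most like the PPE array of its own number. So few values cannot settle whether the arrays were paired. With the replicate block, 3024 names were higher and 2281 lower, and 7 GTPase names and all 3 of Ifng and its receptor genes were called. Signal over background limited Ifng, Il12b, Il18rap, Eomes, Ncr1, Klrk1, Ngp, Cxcr2, Mpo and Ltf in sham. Their log2 fold changes were larger in the log ratios of the scanner files, at 4.55 against 2.82 for Ifng and 3.30 against 1.39 for Ngp. The part of the offset in this was not tested.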
